A study of Sus scrofa with 24 samples.

Results

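Transcripts of leptin, of adiponectin and of their receptors were measured in subcutaneous fat from 24 pigs weighing 115 kg, by hybridising Cy3-labelled RNA from each pig to its own Agilent array. The 5 genes, chosen by symbol, were LEP, LEPR, ADIPOQ, ADIPOR1 and ADIPOR2, out of 5589 gene symbols on the array. The pigs came from lines that differ in residual feed intake, which is the intake left over once the needs for gain and maintenance have been subtracted. Each group held 8 pigs with 1 array per pig. RFIneg pigs were the low line with free access to feed, RFIplR pigs were the high line held to the feeding level of the low line, and RFIpl pigs were the high line with free access to feed. Age, sex and fat thickness of the pigs are not given in the sources used here, and the low line was measured with free access to feed only.

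Leptin is a hormone that fat cells release in proportion to their fat stores. It acts through LEPR, a receptor of the cytokine type that signals through JAK2 and STAT3 and lowers appetite. Adiponectin, encoded by ADIPOQ, is among the most abundant secreted proteins of fat cells, and it acts through the membrane receptors ADIPOR1 and ADIPOR2, which are linked to AMPK and to PPAR-alpha and fatty acid oxidation. In pigs, as in other mammals, blood leptin tends to follow body fat and feed intake.

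The 5 genes were measured by 16 probes of 60 bases, namely 2 for LEP, 1 for LEPR, 8 for ADIPOQ, 2 for ADIPOR1 and 3 for ADIPOR2. Probes are named here by the start position that the files list for them. These positions refer to 2 different sequence records for ADIPOQ (484 and 770 to one, the other 6 to another) and for ADIPOR2 (708 and 713 to one, 2389 to another), so distances hold only within a record. Genome coordinates of the probes were not used here. The sequences below are those on which the results turn, because probes of one gene did not always give the same result. The leptin pair lies far apart on the transcript, and the capitals in its later probe mark a span that holds stretches of 15 bases found again in 5 probes outside the member genes. The probe at 1074 shares such stretches with 2 outside probes. LEPR 3876, ADIPOQ 2478, ADIPOR2 708 and ADIPOR2 713 share them with 1 each, and none of these is marked.
LEP 1074: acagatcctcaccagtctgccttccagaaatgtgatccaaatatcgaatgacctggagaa
LEP 3082, last 30 bases: gaaaataCCAGAGTTCCCTTGTGGCACAGa

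For ADIPOQ, the probe with the lowest listed position and the probe at 1496, which gave the most stable difference, are shown first. The next 3 probes read the same stretch in versions that differ at the capitals, and the last pair reads another stretch with runs of A of different length, in capitals. Of these 5 probes only the shared stretch is printed.
ADIPOQ 484: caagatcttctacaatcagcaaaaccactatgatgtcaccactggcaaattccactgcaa
ADIPOQ 1496, first 30 bases: atactacgcctttttaaggaagtatatggt
ADIPOQ 2116: ttttccacTGAGTTaggggtgactacgctt
ADIPOQ 2130: ttttccacGAGGTTaggggtgactacgctt
ADIPOQ 2134: ttttccacTGAGGTaggggtgactacgctt
ADIPOQ 2461: tgatactcttcAAAgttttagaaaaagca
ADIPOQ 2478: tgatactcttcAAAAgttttagaaaaagca

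For ADIPOR2, the probes at 708 and 713 share the 55 bases in capitals and so are not independent readings. The end of the probe at 2389 is shown because this probe differed from the other 2 in its calls. It holds AATAAA, the usual polyadenylation hexamer, in capitals, as do 9.60% of the 43603 probes (4187, strand as printed on the array).
ADIPOR2 708: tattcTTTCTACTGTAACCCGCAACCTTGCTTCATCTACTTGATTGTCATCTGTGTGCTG
ADIPOR2 713: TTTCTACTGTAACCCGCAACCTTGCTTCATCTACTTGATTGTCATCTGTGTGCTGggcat
ADIPOR2 2389, last 30 bases: tctcaacttctAATAAAaagaaccaaatgg

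Levels are log2 processed intensities relative to the 75th percentile of each array, so 0 is the level of that percentile, and levels of different probes are not compared. The arrays fell into 17 bright ones (6 RFIneg, 5 RFIplR, 6 RFIpl) and 7 dim ones (2, 3 and 2), with 75th percentiles of 415.5 to 664.7 and 69.5 to 94.6 in intensity units. All 7 dim arrays were among the 10 scanned on 1 of 3 days. Precision is limited by how many arrays there are. Bright and dim arrays read probes of one gene differently, so differences are given without and with the brightness class as a block. FABP4 and PLIN1, genes of fat cells, were well above background on 24 of 24 arrays, and 17 of 19 fat cell markers were on the array and passed the filter on dim probes. A summed level of markers is the log2 of their sum taken off the log scale, so the brightest markers weigh most in it. The summed level of 8 measured skeletal muscle markers spanned 3.69 to 4.72 in RFIneg, 3.65 to 5.07 in RFIplR and 3.89 to 10.52 in RFIpl, the highest being array RFIpl 2. That of 3 keratinocyte markers spanned -1.53 to -0.60 in RFIneg, -1.19 to 0.21 in RFIplR and -1.23 to 5.87 in RFIpl, the highest being RFIpl 7, and none of 3 erythroid markers was on the array. Summed levels of macrophage, endothelial, fibroblast and lymphocyte markers (3, 6, 6 and 3 measured) overlapped between the 3 groups. Some results are also given without arrays RFIpl 1 and 2 or without RFIpl 7 and 8, and the part of these tissues in the results was not otherwise tested.

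Of the 16 member probes, 15 passed the filter and were well above background on all 24 arrays. The LEPR probe was well above background on 0 of 8 arrays in RFIneg, in RFIplR and in RFIpl alike, so no level or difference of the leptin receptor is given. Over all 28611 probes tested, limma without a block called 59 in RFIneg against RFIpl (0.206%), 0 in RFIneg against RFIplR (0%, 603 at an unadjusted p under 0.05) and 85 in RFIplR against RFIpl (0.297%). None of the 15 member probes was among those called, against 0.147%, 0% and 0.182% of all probes called higher. Their median difference was 0.31, 0.09 and 0.22 in the 3 comparisons, beside -0.01, -0.01 and 0.01 over all probes. The RFIpl arrays are shared by 2 of these comparisons, so their results are not independent.

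On the bright arrays, leptin transcript was high with little spread in RFIneg, a little lower in RFIplR, and spread in RFIpl over the lowest and the highest values of those arrays. The mean differences against RFIpl were above 1 on the log2 scale at both probes, and they did not pass the test over all probes. In bulk tissue, fewer fat cells and less RNA per fat cell cannot be told apart.

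At the probe at 3082, which represents the gene, LEP levels in RFIneg were -0.51 at the lowest, 3.49 at the median and 3.75 at the highest. In RFIplR they were 1.97, 2.64 and 3.39, and in RFIpl -0.06, 1.10 and 3.93. The 6 bright RFIneg arrays lay between 3.30 and 3.75 and the 5 bright RFIplR arrays between 2.53 and 3.39, while the 6 bright RFIpl arrays spread over -0.06 to 3.93. Within RFIpl, arrays 1, 2 and 4 were low (0.88, -0.06 and 0.50), arrays 7 and 8 were intermediate (2.26 and 2.33) and array 3 was the highest of all 24. On the bright arrays the RFIpl range therefore covered both other groups whole.

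The SD over bright arrays was 0.16 in RFIneg (n = 6), 0.33 in RFIplR (n = 5) and 1.48 in RFIpl (n = 6). These spreads were not compared by a test, and the fit assumes one spread for all groups at a probe. On the dim arrays LEP stood at 1.91 and -0.51 in RFIneg, at 2.33, 1.97 and 2.14 in RFIplR, and at 1.32 and 0.61 in RFIpl. The low dim RFIneg array, number 7, was the lowest value of the 24 at this probe.

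LEP at 3082 averaged 2.83 ± 1.47 in RFIneg, 2.64 ± 0.48 in RFIplR and 1.47 ± 1.30 in RFIpl (SD, n = 8 each). RFIneg minus RFIpl was 1.36 (95% interval 0.20 to 2.52, 2.57-fold, limma adjusted p = 0.568), and with the brightness block 1.36 (0.41 to 2.31, adjusted p = 0.077). RFIplR minus RFIpl was 1.17 (0.01 to 2.32, adjusted p = 0.604), and with the block 1.34 (0.38 to 2.30, adjusted p = 0.0667). RFIneg minus RFIplR was 0.19 (-0.96 to 1.35, adjusted p = 0.999), and with the block 0.02 (-0.94 to 0.98, adjusted p = 0.993), an interval that admits a difference of nearly 1 either way. Neither the order of RFIneg and RFIplR nor that of either against RFIpl passed the test.

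The probe at 1074 gave the same picture on the bright arrays, with RFIneg at -0.82 to -0.43, RFIplR at -1.58 to -0.71 and RFIpl at -4.07 to -0.06. Arrays RFIpl 1, 2 and 4 were again the lowest (-3.39, -4.07 and -3.40) and RFIpl 3 the highest. RFIneg minus RFIpl was 1.14 without a block (95% interval -0.38 to 2.67), RFIneg minus RFIplR -0.45 (-1.97 to 1.08) and RFIplR minus RFIpl 1.59 (0.07 to 3.12), none of them called by limma. With the block they were 1.14 (0.12 to 2.17, adjusted p = 0.169), -0.15 (-1.18 to 0.89) and 1.29 (0.26 to 2.33, adjusted p = 0.101). On the bright arrays RFIneg minus RFIplR had the opposite sign, at 0.57 (-0.53 to 1.68), with 1.76 for RFIneg minus RFIpl and 1.19 for RFIplR minus RFIpl, none called. Over the 17 bright arrays the 2 probes correlated at 0.99 and over the 7 dim arrays at 0.98, but over all 24 at 0.28, given as descriptions of the same libraries.

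**Figure D1:**
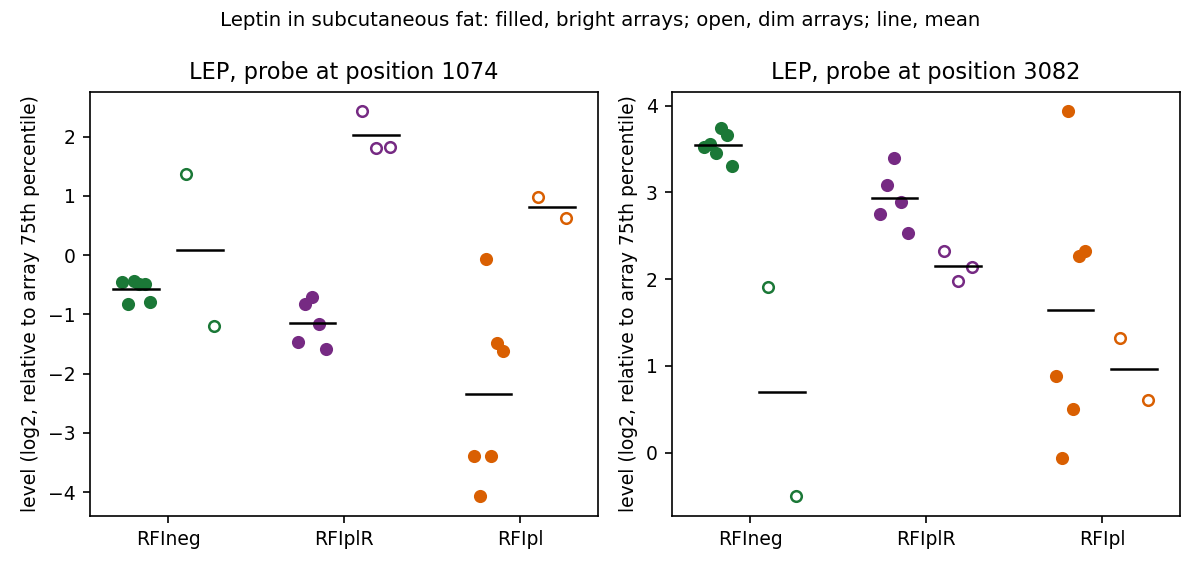
Level of leptin (LEP, log2 relative to the array 75th percentile, y axis) at its probes at 1074 and 3082 in RFIneg, RFIplR and RFIpl, with filled points for bright arrays, open points for dim arrays and lines for class means. The 6 bright RFIneg arrays sit between 3.30 and 3.75 at 3082, while RFIpl spans -0.06 to 3.93; at 1074 the dim arrays of RFIplR and RFIpl lie above their bright ones.

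Restricting the fit to the bright arrays raised the LEP difference of RFIneg over RFIpl at 3082 to 1.90 (95% interval 0.89 to 2.91, 3.73-fold, limma adjusted p = 0.058), with 0.61 (-0.45 to 1.67) for RFIneg minus RFIplR and 1.29 (0.23 to 2.35, adjusted p = 0.154) for RFIplR minus RFIpl. On the dim arrays alone RFIneg minus RFIpl was -0.26, the opposite sign, and RFIplR minus RFIpl 1.18. Within the scan day of 11 arrays the 2 differences were 1.16 and 0.74, and within the day of 10 arrays -0.47 and 1.07, the remaining day holding 3 arrays. On the day of 10 arrays the RFIneg arrays were all dim, while RFIpl and RFIplR had bright and dim ones. The differences of that day therefore mix group with brightness. With arrays weighted by quality, limma called LEP at 3082 higher in RFIneg than in RFIpl (1.83, adjusted p = 0.00215) and higher in RFIplR than in RFIpl (1.29, adjusted p = 0.0319). That setting called 10.5% and 10.3% of all probes in these comparisons.

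Markers of fat cells and of muscle also varied among the RFIpl arrays. The mean level of the 17 measured fat cell markers was 5.43, 4.81, 5.66, 5.03, 5.44 and 5.47 on the bright arrays RFIpl 1, 2, 3, 4, 7 and 8, within a span of 4.81 to 5.98 over the 17 bright arrays. TNNT3, a troponin of fast muscle fibres, stood at 7.18 on RFIpl 2 and 1.71 on RFIpl 1, and at -3.67 on RFIpl 4. With RFIpl 1 and 2 left out and brightness as a block, the LEP difference at 3082 was 0.87 for RFIneg minus RFIpl and 0.88 for RFIplR minus RFIpl (limma adjusted p = 0.291 and 0.227), over 1.5 times smaller than with all arrays.

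Adiponectin transcript was higher in RFIneg than in RFIpl, and higher in RFIplR than in RFIpl, at 5 of 8 probes in each comparison once brightness was a block, where 6.6% and 10.3% of all probes were called. The differences were small, at most 1.39-fold at the called probes. RFIneg and RFIplR did not differ by a call at any probe. Without the block the same probes differed in the same direction, but no ADIPOQ probe was called.

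At the probe at 1496, ADIPOQ levels in RFIneg were 4.17 at the lowest, 5.47 at the median and 5.75 at the highest. In RFIplR they were 4.03, 5.45 and 5.81, and in RFIpl 3.90, 5.05 and 5.29. The bright arrays spanned 5.35 to 5.75 in RFIneg, 5.40 to 5.81 in RFIplR and 4.70 to 5.29 in RFIpl, so RFIpl did not overlap either of the other groups, which overlapped each other. The dim arrays were lower in every group, at 4.17 and 4.67 in RFIneg, 4.03 to 4.33 in RFIplR, and 3.90 and 4.03 in RFIpl.

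RFIneg minus RFIpl at 1496 was 0.47 (1.38-fold, SE 0.31 without a block and 0.10 with it), and limma with the brightness block gave an adjusted p of 0.0109. RFIplR minus RFIpl was 0.48 with the block (SE 0.10, 1.39-fold, adjusted p = 0.00649) and 0.32 without it. RFIneg minus RFIplR was -0.01 with the block (95% interval -0.22 to 0.21). This probe was called in both comparisons against RFIpl in all 24 fits that left out 1 array each with the block, with adjusted p between 0.00574 and 0.0254 in RFIneg against RFIpl and between 0.00421 and 0.0168 in RFIplR against RFIpl. The other called ADIPOQ probes were less stable: of the same 24 fits, RFIneg against RFIpl was called in 17 at 484, 6 at 2116, 9 at 2130 and 14 at 2134. RFIplR against RFIpl was called in 12 at 484, 11 at 770, and 24 at each of 2130 and 2134.

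At 2134, the ADIPOQ probe with the highest mean signal, levels were 7.34, 8.20 and 8.34 in RFIneg (lowest, median and highest), 7.19, 8.27 and 8.41 in RFIplR, and 7.10, 7.97 and 8.19 in RFIpl. RFIneg minus RFIpl was 0.27, with limma adjusted p = 0.0392 with the block. RFIplR minus RFIpl was 0.29 with the block (1.22-fold, adjusted p = 0.0211) and 0.18 without it. RFIneg minus RFIplR was -0.02 with the block (95% interval -0.18 to 0.14, adjusted p = 0.954).

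Among the other ADIPOQ probes, RFIneg minus RFIpl with the block was called at 484 (0.38, limma adjusted p = 0.0313), 2116 (0.27, 0.0463) and 2130 (0.27, 0.0439). RFIplR minus RFIpl was called at 484 (0.34, adjusted p = 0.0392), 770 (0.34, 0.0448) and 2130 (0.31, 0.0207). The probes at 2461 and 2478, which read the latest stretch, were not called in any comparison: RFIneg minus RFIpl was 0.19 and 0.25, and RFIplR minus RFIpl 0.18 and 0.21. The probes at 2116, 2130 and 2134 share sequence, as do those at 2461 and 2478, so the 8 probes are fewer than 8 separate readings of one transcript.

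All 8 ADIPOQ probes lay higher in RFIneg than in RFIpl without a block (0.19 to 0.47), and also under normexp background correction, quantile scaling and median scaling. For RFIplR against RFIpl all 8 were higher without a block (0.003 to 0.52), but 3 of 8 under normexp, 6 of 8 under quantile scaling and 7 of 8 under median scaling. Normexp also moved the median of all probes in this comparison to 0.15, against 0.01 in the fit as scaled above, so the ADIPOQ probes lay lower still relative to it. Within the scan day of 11 arrays, all bright, 7 of 8 ADIPOQ probes were higher in RFIneg than in RFIpl and 6 of 8 in RFIplR than in RFIpl. Within the day of 10 arrays it was 3 and 7 of 8. There the RFIneg arrays were all dim and the other groups held bright and dim ones, so these counts mix group with brightness.

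On the bright arrays, 3 of 15 member probes did not overlap between RFIneg and RFIpl and were higher in RFIneg, against 0.545% of all probes. As many did so between RFIplR and RFIpl, against 2.16% of all probes, and 0 between RFIneg and RFIplR, against 0.231%. In both cases these were the ADIPOQ probes at 1496, 2130 and 2134. At 2134 the gap was small, with the lowest bright RFIneg array and the highest bright RFIpl array both at 8.19 after rounding. At 2130, which shares sequence with 2134, these arrays stood at 8.16 and 8.15, so the gap was small there too. Limma within the bright arrays called these 3 probes in RFIplR against RFIpl (3.26% of all probes called, 2.26% called higher) and no member probe in RFIneg against RFIpl (1.03%, 0.741% called higher), where the smallest adjusted p of ADIPOQ was 0.0551. With slide and brightness both as blocks, limma called 1 of 15 member probes in RFIneg against RFIpl (1.45% of all probes called, 0.989% called higher) and 4 of 15 in RFIplR against RFIpl (5.9%, 3.61% called higher), all of them ADIPOQ.

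**Figure D2:**
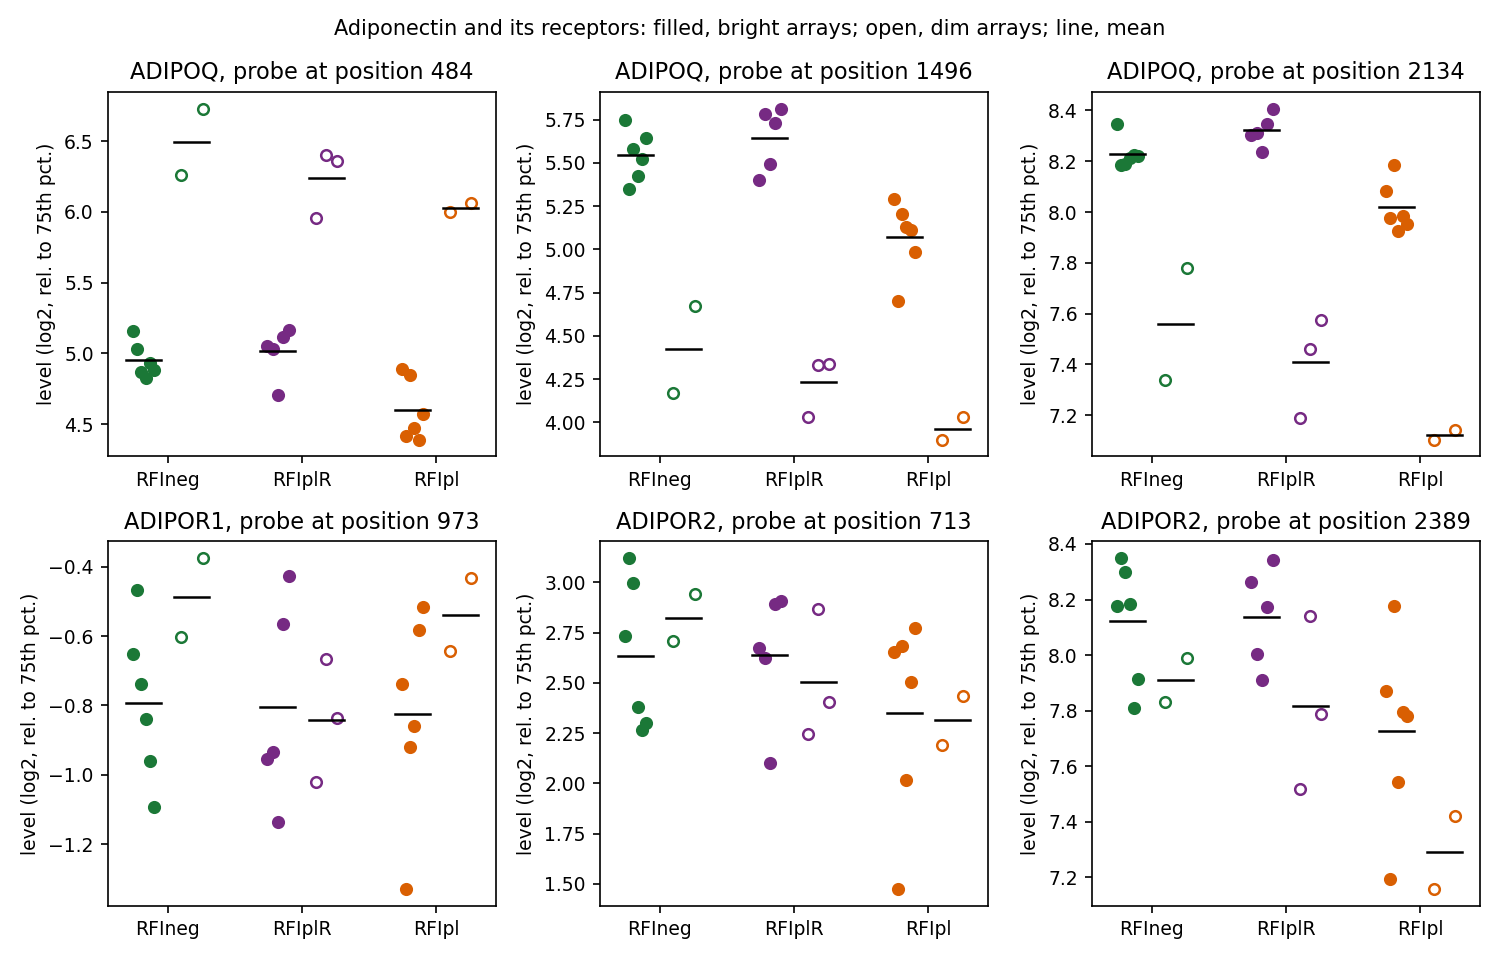
Levels (log2 relative to the array 75th percentile, y axes) of ADIPOQ at 3 probes, ADIPOR1 at 1 and ADIPOR2 at 2, in RFIneg, RFIplR and RFIpl, with filled points for bright arrays, open points for dim arrays and lines for class means; y axes differ between panels. At ADIPOQ 1496 the bright RFIpl arrays (4.70 to 5.29) lie below the bright arrays of RFIneg and RFIplR, and at ADIPOR1 973 the 3 groups overlap.

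ADIPOR2 transcript was higher in RFIneg and in RFIplR than in RFIpl at 1 of its 3 probes, with brightness as a block, where 6.6% and 10.3% of all probes were called (4.29% and 5.8% called higher). ADIPOR1 was not called in these fits. For ADIPOR2, the receptor tied mainly to PPAR-alpha signalling in mouse liver, levels at 2389 in RFIneg were 7.81 at the lowest, 8.08 at the median and 8.35 at the highest. In RFIplR they were 7.52, 8.07 and 8.34, and in RFIpl 7.16, 7.66 and 8.18. RFIpl overlapped both other groups, its highest array being RFIpl 3 at 8.18, while RFIpl 2 and 5 were lowest at 7.19 and 7.16.

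RFIneg minus RFIpl at 2389 was 0.45 (1.37-fold), with limma adjusted p = 0.415 without a block and 0.0321 with it. RFIplR minus RFIpl was 0.40 without a block (adjusted p = 0.431) and 0.44 with it (1.36-fold, adjusted p = 0.028). RFIneg minus RFIplR was 0.01 with the block (95% interval -0.25 to 0.27). The overlapping probes at 708 and 713 gave 0.31 and 0.34 for RFIneg minus RFIpl and 0.23 and 0.25 for RFIplR minus RFIpl with the block, in the same direction but not called. Without RFIpl 1 and 2, the probe at 2389 was no longer called, with 0.39 in both comparisons (adjusted p = 0.0941 and 0.0633). With 1 array left out it was called in 17 of 24 fits in RFIneg against RFIpl and in 19 of 24 in RFIplR against RFIpl. Limma within the bright arrays called no ADIPOR2 probe in these comparisons (smallest adjusted p = 0.169 and 0.143). Within the scan day of 11 arrays, 1 of 3 ADIPOR2 probes was higher than in RFIpl in each comparison. Within the day of 10 arrays, where group and brightness are mixed, it was 3 of 3 in each.

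For ADIPOR1, the receptor tied mainly to AMPK signalling in mouse tissues, levels at 973 in RFIneg were -1.09 at the lowest, -0.70 at the median and -0.37 at the highest. In RFIplR they were -1.14, -0.89 and -0.43, and in RFIpl -1.33, -0.69 and -0.43. The 3 groups overlapped. With the block, RFIneg minus RFIpl was 0.04 (95% interval -0.23 to 0.30), RFIneg minus RFIplR 0.12 (-0.14 to 0.39) and RFIplR minus RFIpl -0.09 (-0.35 to 0.18), with limma adjusted p of 0.903, 0.788 and 0.723. These intervals, which hold for the probe at 973, admit differences of up to 0.39. At the probe at 605 the differences with the block were 0.10, 0.17 and -0.07 in the same order, none called.

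**Figure D3:**
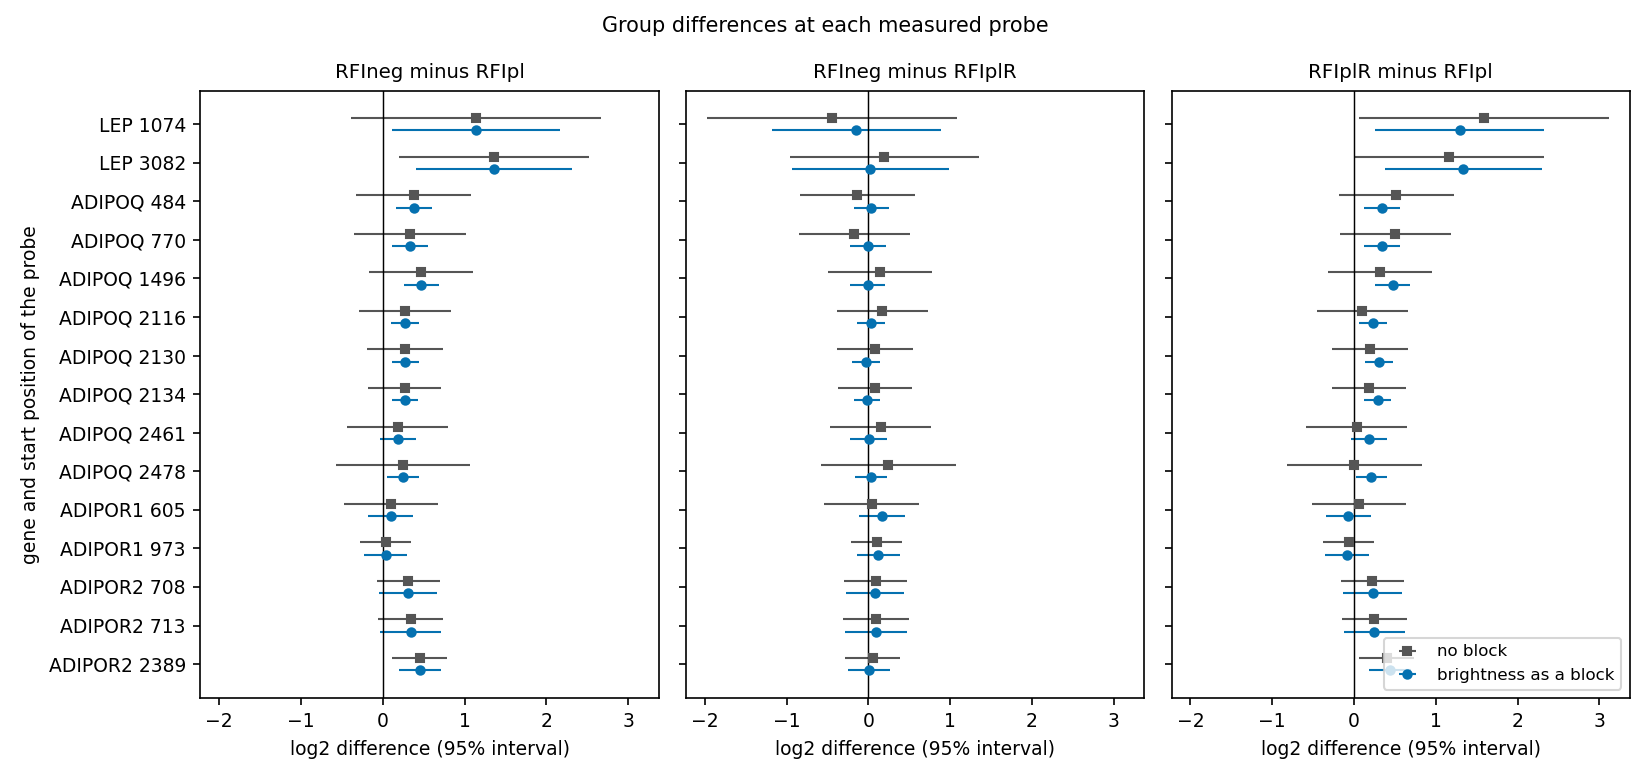
Log2 differences with 95% intervals (x axis) at the 15 measured probes (y axis, gene and start position) for RFIneg minus RFIpl, RFIneg minus RFIplR and RFIplR minus RFIpl, without a block (grey squares) and with brightness as a block (blue circles). With the block the ADIPOQ and ADIPOR2 intervals narrow and most lie above 0 in the comparisons against RFIpl, while those of RFIneg minus RFIplR include 0 at all 15 probes.

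Counted over the members, limma with brightness as a block called 6 of 15 probes in RFIneg against RFIpl (5 of ADIPOQ, 1 of ADIPOR2, all higher in RFIneg), where 6.6% of all probes were called and 4.29% were called higher. It called 0 of 15 in RFIneg against RFIplR, where 0% of all probes were called (2714 at an unadjusted p under 0.05), and 6 of 15 in RFIplR against RFIpl, where 10.3% were called and 5.8% were called higher. Leaving out 1 array at a time moved these counts between 1 and 9 in RFIneg against RFIpl and between 3 and 9 in RFIplR against RFIpl. The count fell by over 1.5 times without any one of 11 arrays in RFIneg against RFIpl (RFIneg 2, 3, 4 and 7, and every RFIpl array but RFIpl 3) and of 5 in RFIplR against RFIpl (RFIplR 4, 7 and 8, RFIpl 4 and 5). Without RFIpl 1 and 2, which had the highest TNNT3 levels, it was 1 and 3, and without RFIpl 7 and 8, of which RFIpl 7 was highest in keratinocyte markers, 1 and 2. ADIPOQ at 1496 was called in both comparisons in each of these fits.

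Bright and dim arrays read probes of one gene differently. The mean of bright minus dim arrays was -1.41 and -1.35 at the ADIPOQ probes at 484 and 770 and between 0.81 and 1.66 at the 6 probes of the other sequence record, where the values did not run in the order of position. At LEP it was -2.49 at 1074 and 1.29 at 3082, a gap of 3.78 between probes of one record. ADIPOR1 gave -1.02 at 605 and -0.15 at 973, and ADIPOR2 0.03, -0.01 and 0.30 at 708, 713 and 2389.

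Over the whole array, 614 sequence records had probes at least 500 bases apart, and in 495 of them (80.6%) the later probe was relatively higher on bright arrays, with a median gap of 1.55. ADIPOQ probe pairs correlated between 0.36 and 0.98 within the bright arrays and between -0.85 and 0.996 over all 24. RNA integrity values are not given in the sources used here, and the part of RNA quality or labelling was not tested.

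**Figure D4:**
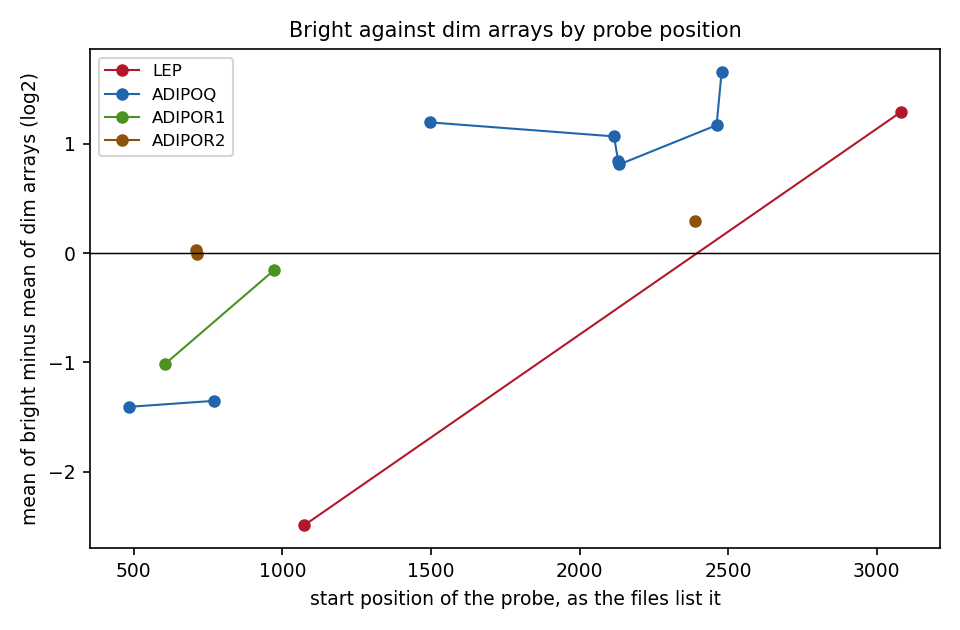
Mean of bright minus mean of dim arrays (log2, y axis) against the start position listed for each of the 15 measured probes (x axis), with lines joining probes listed on one sequence record of a gene. ADIPOQ lies below 0 at the 2 probes of one record (-1.41 and -1.35) and above 0 at the 6 of the other, and LEP spans -2.49 to 1.29.

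Leptin receptor signalling (JAK and STAT proteins, phosphatases, SOCS proteins) was represented by 14 measured genes of 21 listed. Without a block, limma called 0 genes in any comparison in this list and in the 5 lists that follow. With brightness as a block, the list counts stand beside 6.6% of all probes called in RFIneg against RFIpl (4.29% higher) and 10.3% in RFIplR against RFIpl (5.8% higher), so a count of 1 gene in a list of 14 or 17 is near that background. With brightness as a block, AKT1, a kinase downstream of insulin and leptin, fell in RFIneg relative to RFIpl (-0.62, limma adjusted p = 0.0166) and in RFIplR relative to RFIpl (-0.80, adjusted p = 0.00224), and no other member was called. AKT1 within the bright arrays was called in RFIplR against RFIpl (-0.77, adjusted p = 0.0484) and not in RFIneg against RFIpl (-0.59, adjusted p = 0.121). AKT1 kept its call in RFIplR against RFIpl without RFIpl 7 and 8 (adjusted p = 0.0117), but not in RFIneg against RFIpl (-0.56, adjusted p = 0.0603). The median difference of the list was 0.02 for RFIneg minus RFIpl and 0.08 for RFIplR minus RFIpl, beside -0.01 and -0.02 over all probes. LEPROT, whose product limits leptin receptor at the cell surface, had 0.36 for RFIneg minus RFIpl with the block (adjusted p = 0.0652). Its difference was 0.35 for RFIneg minus RFIplR (limma adjusted p = 0.398) and 0.01 for RFIplR minus RFIpl (adjusted p = 0.970), both with the block.

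Adiponectin receptor signalling was represented by 17 measured genes of 25 listed. With the block, CDH13, which encodes T-cadherin, a surface protein that binds adiponectin, rose in RFIneg relative to RFIpl (0.58, limma adjusted p = 0.0219), the only one of 17 called there. In RFIplR relative to RFIpl, SIRT1, a deacetylase that depends on NAD (0.73, adjusted p = 0.00278), APPL2, an adaptor of the adiponectin receptors (0.42, adjusted p = 0.0313), and PPARA, a regulator of fatty acid oxidation genes (1.34, adjusted p = 0.0497), rose. MAPK14, the p38 stress kinase, fell (-0.64, adjusted p = 0.00708). On the bright arrays alone SIRT1 kept its call (0.70, adjusted p = 0.037), and MAPK14 (-0.57, 0.097), APPL2 (0.43, 0.149), PPARA (1.39, 0.0925) and CDH13 (0.53, 0.138) were not called. SIRT1 and MAPK14 were called in each of 24 fits that left out 1 array with the block, APPL2 in 15 and PPARA in 6, and CDH13 in 21 (not without RFIneg 7, RFIpl 1 or RFIpl 4). Without RFIpl 1 and 2 CDH13 had 0.53 (adjusted p = 0.0806). Without RFIpl 7 and 8, limma called CDH13 (adjusted p = 0.0397), SIRT1 (0.0136) and MAPK14 (0.0263) in the same comparisons, but not APPL2 (0.0706) or PPARA (0.129). The median of the list was 0.02 for RFIneg minus RFIpl and 0.16 for RFIplR minus RFIpl. Of 5 measured genes of 14 listed for the folding and release of adiponectin, 0 were called, CALR coming nearest in RFIplR against RFIpl (-0.36, adjusted p = 0.0681).

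Of 12 measured transcription factors of adipokine genes (15 listed), KLF15, a factor of fat cell formation, rose with the block in RFIneg relative to RFIpl (0.95, limma adjusted p = 0.00668) and in RFIplR relative to RFIpl (0.78, adjusted p = 0.014). NR1H3, the liver X receptor alpha, fell in RFIplR relative to RFIpl (-0.38, adjusted p = 0.0493). Without RFIpl 1 and 2, KLF15 was called in RFIneg against RFIpl (0.83, adjusted p = 0.0414) but not in RFIplR against RFIpl (0.67, adjusted p = 0.0533), and NR1H3 was called in 6 of 24 fits that left out 1 array. Of 19 measured other adipokines (32 listed), 2 rose in each comparison against RFIpl. With the block, 4.29% of all probes were called higher in RFIneg against RFIpl and 5.8% in RFIplR against RFIpl. The counts of these 2 lists are near that background. SFRP5, a secreted inhibitor of Wnt signalling, was 1.63 higher in RFIneg (adjusted p = 0.00527) and 1.29 higher in RFIplR (adjusted p = 0.0133), and AGT, the precursor of angiotensin, was 0.83 higher in RFIneg (adjusted p = 0.0171) and 0.67 higher in RFIplR (adjusted p = 0.0353). Without RFIpl 1 and 2, of these only SFRP5 in RFIneg against RFIpl kept its call (1.35, adjusted p = 0.0336). Without RFIpl 7 and 8, limma called SFRP5 in both comparisons (adjusted p = 0.021 and 0.0321) and KLF15 in RFIneg against RFIpl (0.0342). Not called there were KLF15 in RFIplR against RFIpl (0.0547), NR1H3 (0.0805) and AGT in both (0.0602 and 0.104). Within the bright arrays KLF15 was called in RFIneg against RFIpl (1.10, adjusted p = 0.0453), and none of SFRP5, AGT, NR1H3 or, in RFIplR against RFIpl, KLF15 was called. None of these lists had a call in RFIneg against RFIplR.

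Most fat cell markers lay above 0 in all 3 comparisons, and few passed the test. Without a block, limma called 0 of 17 in any comparison. With the block, 4 of 17 rose in RFIneg relative to RFIpl, namely AQP7, a glycerol channel (0.79, limma adjusted p = 0.0171), LIPE, the hormone-sensitive lipase (0.55, 0.019), PLIN1, a coat protein of lipid droplets (0.48, 0.0223), and CIDEC, which fuses lipid droplets (0.75, 0.0247). In RFIplR relative to RFIpl 2 of 17 rose, PLIN1 (0.39, adjusted p = 0.0479) and AQP7 (0.60, adjusted p = 0.0492). Of all probes, 4.29% were called higher in RFIneg against RFIpl and 5.8% in RFIplR against RFIpl, so the count of 2 is near that background. Without RFIpl 1 and 2, 0 of 17 were called by limma in either comparison, the 4 genes having 0.67, 0.54, 0.44 and 0.60 for RFIneg minus RFIpl (adjusted p = 0.0838, 0.0653, 0.0793 and 0.12), and without RFIpl 7 and 8 the counts were 2 and 0. Within the bright arrays, 1 of 17 (AQP7) was called in RFIneg against RFIpl, and PLIN1 and AQP7 in RFIplR against RFIpl. With the block, the list had a median of 0.35 for RFIneg minus RFIpl (17 of 17 members above 0), 0.20 for RFIneg minus RFIplR (16 of 17) and 0.29 for RFIplR minus RFIpl (13 of 17). Without it the medians were 0.35, 0.21 and 0.18, with 17, 17 and 11 of 17 above 0, beside medians of -0.01, -0.01 and 0.01 over all probes. The summed level of the markers (log2 of the sum) on bright arrays was 10.73 to 11.23 in RFIneg, 10.71 to 11.04 in RFIplR and 10.21 to 11.13 in RFIpl. Its part in the ADIPOQ and LEP differences was not tested.

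On the 17 bright arrays, after removal of group means, the genes most like LEP among 4387 were SNX10 (Pearson r 0.93), OPRL1 (0.91), SLC41A2 (0.90) and SMN1 (0.90). Those most like ADIPOQ were ATP8, ADORA1, PTPLB and LGALS12, with r of 0.72 each. ADIPOR1 was closest to NDUFAF6 (0.94), PSMA5 (0.92), SLC25A5 (0.91) and LOC100513542 (0.90), and ADIPOR2 to ACOT6 (0.93), SEC22B (0.93), FAM213A (0.92) and HADH (0.91). Among the members, LEP and ADIPOQ correlated at 0.39, LEP and ADIPOR2 at 0.59, ADIPOQ and ADIPOR2 at 0.54, ADIPOR1 and ADIPOR2 at 0.67, and ADIPOR1 with LEP and with ADIPOQ at 0.21 each. These coefficients describe arrays that share one processing, and those with other genes are the highest of 4387. The bright SD of LEP at 3082 was 1.48 in RFIpl, 0.16 in RFIneg and 0.33 in RFIplR. The coefficients of LEP therefore rest mostly on the 6 bright RFIpl arrays.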

How the data were processed

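Intensities of each spot were read from the scanner output of 24 arrays. The authors deposited these intensities after background subtraction in Feature Extraction 10.7.3.1, as stated per the file headers, without scaling of one array to another. A second deposited file gives log2 values for 24675 of the 43803 non-control spots of each array, and served as an alternative. These values equalled the log2 intensity of each spot less a constant per array, with medians within 0.001 of 0 over the listed spots. The submitters' processing notes name R 2.10.0.

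Levels were log2 of the processed intensity (floor 1) minus the 75th percentile of non-control probes of the array. A probe entered the tests when well above background on at least 6 of 8 arrays of 1 group and missing on at most 6 arrays, which kept 28611 of 43603. Symbols came from accessions or gene identifiers of RefSeq or from the files, and 31105 probes had none.

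The groups were contrasted in limma 3.58.1 (lmFit, eBayes, R 4.3.3), in a single model of all 24 arrays, two-sided, with Benjamini-Hochberg adjustment over all tested probes and a threshold of 0.05. The model without a block was tested on simulated data with known differences and the same spread in every group at a probe. The fits with blocks were not tested in this way. The brightness class, a split of the 75th percentile and of no gene, was a block in an alternative fit. Files were read with the R package data.table, version 1.17.8, and Python 3.11.15 with pandas 2.3.3, numpy 2.4.6 and matplotlib 3.10.9 made summaries and plots. No spot was saturated, and no arrays were identical.

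A gene was represented by its kept probe with the highest mean signal. Named genes were all member probes, the members of each list past the test (up to 4 with the smallest p, or up to 2 where none passed), the 4 genes most like each member, and tissue markers. LEPROT was named outside this rule in the comparisons against RFIpl, after its values were seen. The members, lists and tests were chosen with earlier results of these data known, and the fits that leave out arrays with the brightness block were added after the data were seen. P-values measure the spread between arrays, each from a different pig. Spread between pigs was not separated from that of sample handling, as no pig had a repeat array. Without a block, this spread also holds the differences between bright and dim arrays. The alternatives were blocks for replicate number, brightness, slide and scan day, other scalings, filters and variance models, array weights, and arrays left out.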

Additional observations from a re-analysis of the deposited data

Results flagged for a closer look

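Among 45 sets of 8 arrays (15 member probes in 3 groups), 2 held an array that stood apart from the other 7 by Dixon's test, where chance alone marks about 1 in 20 such sets. Both were leptin in RFIneg, and both arrays were dim. At the LEP probe at 1074, array RFIneg 1 was the highest at 1.38, and at the LEP probe at 3082, array RFIneg 7 was the lowest at -0.51. RFIneg 7 was also the lowest RFIneg array at LEP 1074 (-1.19), while its ADIPOQ level at 484 (6.73) was the highest of the 24 arrays.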

How the results depend on the processing

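Counts and differences are given in the order RFIneg against RFIpl, RFIneg against RFIplR, RFIplR against RFIpl. Without a block, limma called no member probe, also with each array left out (0 to 0). Member probes called were 6, 0 and 6 with brightness as a block, 4, 0 and 4 with array weights, 1, 0 and 4 with slide and brightness, and 0, 0 and 3 on bright arrays; with the brightness block and 1 array left out they were 1 to 9, 0 to 0 and 3 to 9, without RFIpl 1 and 2 they were 1, 0 and 3, and without RFIpl 7 and 8 they were 1, 0 and 2. Of all probes, 59, 0 and 85 were called, against 1887, 0 and 2951 with brightness as a block, 296, 0 and 933 on bright arrays, 414, 0 and 1687 with slide and brightness, and 3001, 4 and 2937 with array weights. In RFIneg against RFIpl and RFIplR against RFIpl the calls were 0 and 25 with slide as a block, 122 and 273 with slide as a random block, 0 and 4 under normexp, 3 and 21 under median scaling, 2 and 38 without the filter, and 0 and 1 without RFIpl 1 and 2. The dim arrays, scan day 1 and scan day 2 gave 0 and 0; the remaining scan day, with 1 array a group, was not fitted. In RFIplR against RFIpl the scan day block gave 258 and the filter of 8 of 8 arrays 134, and in RFIneg against RFIpl the deposited table gave 39. Leaving out 1 array gave 1 to 283 (lowest without RFIpl 8, highest without RFIpl 3), 0 to 0 and 22 to 296 (without RFIpl 1, without RFIpl 3).

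No pairing of the pigs by replicate number was seen: of 24 same-numbered pairs 12 correlated over 0.1, and 0 of 24 arrays matched its own number best. Differences between bright and dim arrays were left in these correlations, so they cannot exclude a pairing. The replicate block called 0, 0 and 2 of all probes and no member probe.

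At the probe that represents each gene, RFIneg minus RFIpl for LEP was -0.26 on dim arrays, -0.47 within scan day 2 and 1.83 with array weights (called), for ADIPOQ 0.27 (called) with the brightness block, for ADIPOR1 -0.13 within scan day 1, -0.033 with array weights and -0.057 without RFIpl 1 and 2, and for ADIPOR2 0.45 with the block and 0.40 with weights (both called). RFIneg minus RFIplR for LEP was -1.45 on dim arrays, -0.18 with scan day as a block, -1.54 within scan day 2 and -0.13 as a mean over probes. For ADIPOQ it was -0.021 with brightness as a block, -0.092 on bright arrays, -0.10 with slide, -0.016 with slide as a random block, -0.049 with slide and brightness, -0.071 with scan day, -0.061 and -0.098 within scan days 1 and 2, and -0.066 with weights. For ADIPOR1 it was -0.088 under normexp, and for ADIPOR2 -0.016 on bright arrays, -0.018 with slide, -0.0046 with scan day and -0.037 within scan day 2. RFIplR minus RFIpl for LEP was 1.29 with weights, and for ADIPOQ 0.29 with the brightness block, 0.30 on bright arrays, 0.33 with slide and brightness and 0.29 with weights, all called, and -0.039 under normexp. For ADIPOR1 it was 0.020 on bright arrays and 0.10 under normexp, and for ADIPOR2 0.44 with the block (called). Leaving out 1 array without a block gave 1.14 to 1.84, 0.06 to 0.67 and 0.95 to 1.52 for LEP, 0.17 to 0.37, -0.030 to 0.19 and 0.09 to 0.30 for ADIPOQ, -0.046 to 0.091, 0.05 to 0.16 and -0.15 to -0.02 for ADIPOR1, and 0.39 to 0.53, -0.020 to 0.098 and 0.33 to 0.48 for ADIPOR2. Normexp moved the median of all probes to -0.15 in RFIneg minus RFIplR and 0.15 in RFIplR minus RFIpl, against -0.01 and 0.01. The cause of these changes was not tested. On scan day 2 the RFIneg arrays were all dim and the other groups held bright and dim ones, so group and brightness are mixed there.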
